A study of Mus musculus with 4 samples.

Results

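The genes described here encode the calcium/calmodulin-dependent kinases and their close relatives: Camk2a, Camk2b, Camk2d, Camk2g, Camk1, Camk1d, Camk1g, Camk4, Camkk2 and Camkv. Every probe set whose only gene symbol in the platform annotation was one of these 10 was taken, which gave 32 of the 45037 probe sets on the array. The tissue was hippocampus of mouse pups at postnatal day 2, from Zbtb20 knockout animals (2 arrays) and from wild-type animals used as controls (2 arrays). Zbtb20 encodes a zinc finger transcription factor, and the study looked for genes that depend on it while the hippocampus forms. The labels give neither the mouse strain, nor the allele, nor whether the gene was removed from all cells, nor whether an array held RNA of 1 pup or of several.

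When calcium enters a neuron it binds calmodulin, and the complex switches on this family of serine/threonine kinases. CaMKII, built from alpha, beta, gamma and delta subunits in large multimers, can stay active after the calcium signal has ended and is known for its part in synaptic plasticity. CaMKI and CaMKIV act in a cascade below the kinase CaMKK and reach the cytoskeleton and the transcription factor CREB. In rodent forebrain the beta subunit of CaMKII is made early and the alpha subunit becomes abundant as synapses mature after birth.

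The deposited scales differed between replicate numbers, with trimmed means of 497 (knockout) and 498 (control) for replicate 1 and of 156 and 158 for replicate 2, so knockout was set against control within each replicate number, as pair 1 and pair 2. A difference is given as knockout minus control of log2(signal + 32.56), on which 1 is 2-fold for bright probe sets and less than the true change for dim ones. It compares 1 array with 1 array and has no p-value. Of the 9 Zbtb20 probe sets, 3 were lower on the knockout array in pair 1, 2 in pair 2 and 0 in both. Among all probe sets, 22.7% had the weaker signal on both knockout arrays, 32.1% on that of pair 1 alone and 20.9% on that of pair 2 alone. The Zbtb20 differences spanned -1.02 to 0.45 in pair 1 and -0.18 to 0.98 in pair 2. The lowest value was thus over 2-fold down in pair 1, but no probe set of the gene was down in both pairs. As a set, the Zbtb20 probe sets therefore do not bear out the genotype labels. The sources used here do not say which of these probe sets, if any, fall inside the deletion. All directions below follow the labels, and knockout array means the array labelled so. If the arrays of 1 pair carried each other's label, every difference of that pair would turn its sign and the limma estimates below would change, and whether this is so was not tested. Genes of the hippocampal fields were well measured, with a median percentile among all probe sets of 66.1 (knockout) and 67.9 (control) on the pair 1 arrays and 65.3 and 74.3 on the pair 2 arrays. Liver genes had a high summed signal in pair 1 only: for the 10 measured of 12 listed it was 19822 on the knockout and 58828 on the control array there. In pair 2 it was 383 and 372. Albumin (Alb) alone gave 15195 and 39309 of the pair 1 sums. The median percentile of the list was 68.6 (knockout) and 89.2 (control) in pair 1, against 14.3 and 11.8 in pair 2. Not every gene was bright in pair 1, as Afp had 13.7 on the knockout array.

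Promoters are shown for the kinase genes with the widest within-pair differences after Camk2a for which one can be printed, Camk1d and Camk2d, and for Camk2b, whose differences were narrow. RefSeq tables (GRCm38.p6) held a promoter for 7 of the 10 genes among those used here. Each runs 5′ to 3′ from 250 bases before to 50 bases after a transcription start, and capitals mark each GC box GGGCGG, read on both strands. Camk1d has 2 annotated starts.

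Camk2b, chr11:6065699-6065998, minus strand: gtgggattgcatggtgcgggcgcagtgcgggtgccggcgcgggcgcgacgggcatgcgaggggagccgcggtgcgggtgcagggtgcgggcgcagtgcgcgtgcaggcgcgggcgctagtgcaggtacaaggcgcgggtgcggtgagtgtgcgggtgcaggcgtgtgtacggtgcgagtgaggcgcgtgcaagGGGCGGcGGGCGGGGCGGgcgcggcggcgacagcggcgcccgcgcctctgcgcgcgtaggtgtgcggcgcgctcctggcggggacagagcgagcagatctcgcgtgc

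Camk2d, chr3:126596701-126597000, plus strand: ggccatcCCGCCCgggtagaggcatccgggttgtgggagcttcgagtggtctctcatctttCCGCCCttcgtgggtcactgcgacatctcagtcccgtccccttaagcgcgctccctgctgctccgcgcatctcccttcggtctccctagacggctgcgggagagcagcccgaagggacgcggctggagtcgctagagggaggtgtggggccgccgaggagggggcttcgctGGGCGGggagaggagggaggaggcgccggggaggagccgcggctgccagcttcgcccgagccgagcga

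Camk1d, start with higher coordinates, chr2:5714713-5715012, minus strand: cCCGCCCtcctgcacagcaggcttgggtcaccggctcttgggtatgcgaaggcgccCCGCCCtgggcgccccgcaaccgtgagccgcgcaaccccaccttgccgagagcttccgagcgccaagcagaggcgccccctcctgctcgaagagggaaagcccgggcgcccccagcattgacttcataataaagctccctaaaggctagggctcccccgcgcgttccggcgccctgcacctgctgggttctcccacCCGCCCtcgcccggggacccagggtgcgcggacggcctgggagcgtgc

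Camk1d, start with lower coordinates, chr2:5675997-5676296, minus strand: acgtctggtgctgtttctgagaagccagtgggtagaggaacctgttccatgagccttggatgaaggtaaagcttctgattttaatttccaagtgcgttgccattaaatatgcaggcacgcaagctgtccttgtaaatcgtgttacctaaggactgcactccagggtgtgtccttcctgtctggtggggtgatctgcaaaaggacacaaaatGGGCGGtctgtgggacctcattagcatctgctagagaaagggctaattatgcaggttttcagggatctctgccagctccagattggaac

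The promoters of Camk2b, Camk2d and the first Camk1d start each held 3 GC boxes in these 300 bases, and the second Camk1d start held 1. The motif occurs in 35.7% of the 32851 promoters searched. The G and C content was 77.3% for Camk2b, 70.3% for Camk2d, and 71.3% and 48.7% for the Camk1d starts, against a mean of 53.8% over all promoters. A TATAAA box was found in none of these 4 windows (13.6% of all promoters held one), and neither was TGACG, the half-site of the cAMP response element bound by CREB (20.8%). A match is a description of letters, not of a bound factor.

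Camk2a, the alpha subunit of CaMKII, was higher in knockout in pair 1 and lower in knockout in pair 2. Its probe set with the highest mean signal, 1457311_at, had a signal of 952 on the knockout and 409 on the control array of pair 1, and of 375 on the knockout and 1058 on the control array of pair 2. The knockout signals thus overlapped the control signals. In tissue RNA, fewer cells of a type cannot be told apart from less RNA per cell. The differences were log2 1.16 in pair 1 and -1.42 in pair 2, both over 2-fold. Among all 45037 probe sets, the knockout array was over 2-fold higher for 3.63% and over 2-fold lower for 6.48% in pair 1. In pair 2 these shares were 0.153% and 0.178%. Being over 2-fold higher in pair 1 and over 2-fold lower in pair 2 was seen in 0.0711% of probe sets. With quantile normalization the pair 1 difference was 0.99, just under 2-fold, and the pair 2 difference was -1.44. By the brightest probe set of each gene, no other of the 10 was over 2-fold apart in a pair as deposited, while with quantile normalization Camk2d was too, at -1.08 in pair 2.

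Of the 6 Camk2a probe sets, 5 shared this order and 1 went the opposite way. 1437125_at had 447 on the knockout and 271 on the control array of pair 1, against 112 on the knockout and 254 on the control array of pair 2, with differences of 0.66 and -0.99. 1443876_at, at 747 and 336 in pair 1 and 65.7 and 92.3 in pair 2 (knockout, then control), differed by 1.08 and -0.35. Both therefore moved as 1457311_at did, the second mainly in pair 1. 1442707_at differed by 0.47 and -0.11, and the dim 1452453_a_at by 0.37 and -0.00463. 1441734_at was the exception, at -0.35 and 0.19, and its pair 1 signals were dim, 7.5 on the knockout and 18.5 on the control array. The mean over the 6 probe sets was 0.57 in pair 1 and -0.45 in pair 2, so the size of the Camk2a difference, and for 1 of 6 its sign, depends on the probe set.

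**Figure D1:**
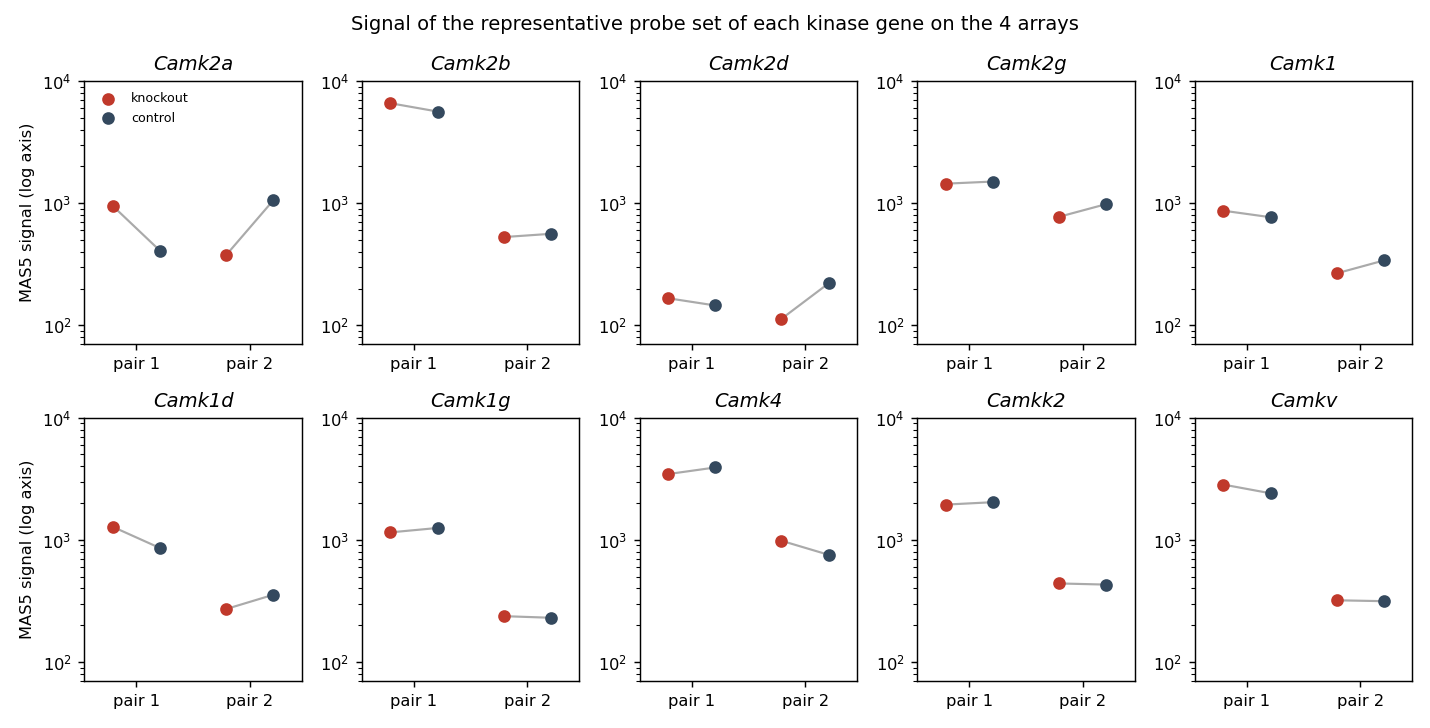
Signal on a log axis of the probe set with the highest mean log2 value for each of the 10 kinase genes. The knockout array (red) stands left of the control array (dark blue) in each pair, and a line joins the 2 arrays of a pair. The line slopes most steeply for Camk2a, down to control in pair 1 (952 and 409) and up to control in pair 2 (375 and 1058), while the pairs as a whole sit at different heights.

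Camk2b, the beta subunit, differed little. It had signals of 6584 on the knockout and 5626 on the control array of pair 1 (percentiles 98.1 and 97.7 of the array) and of 528 on the knockout and 561 on the control array of pair 2 (percentiles 92.0 and 92.4). Its differences were 0.23 and -0.08. A common rescaling of an array moves both subunits alike, apart from the pseudocount: the Camk2a difference minus the Camk2b difference was 0.93 in pair 1 and -1.34 in pair 2. The opposite signs of Camk2a in the pairs are also present relative to Camk2b, whose small differences could not have turned them. The other 8 genes ranged from -0.40 (Camk4) to 0.34 (Camk1d) in pair 1 and from -0.72 (Camk2d) to 0.45 (Camk4) in pair 2 on this measure.

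Camk2d, the delta subunit, was lower in knockout in pair 2 by its brightest probe sets. 1422659_at had 167 on the knockout and 145 on the control array of pair 1, and 113 on the knockout and 221 on the control array of pair 2, which gave 0.16 and -0.80. 1439168_at was lower in knockout in both pairs and by a like amount, at 195 and 288 in pair 1 and at 39.6 and 71.8 in pair 2 (knockout, then control), with differences of -0.50 and -0.53. The probe sets of this gene thus disagreed in pair 1. Of its 7 probe sets, 3 ran higher in pair 1 but lower in pair 2, 2 were lower in both pairs, 1 was higher in both (1444031_at) and 1 ran lower in pair 1 but higher in pair 2 (1456844_at). The mean over the 7 probe sets was 0.07 in pair 1 and -0.25 in pair 2, and with quantile normalization 1422659_at was at 0.19 and -1.08, so the size of the pair 2 difference depends on both choices. The probe sets 1444031_at and 1456844_at were dim, with signals from 1 to 19.6 over the arrays, and differed by 0.16 and 0.07 in pair 2. A further dim probe set, 1460630_at, was at 0.85 and -0.24. Only 3 of the 7 were above the brightness filter of the test described below.

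Camk2g, the gamma subunit, was close to even in pair 1. Probe set 1423941_at had 1444 on the knockout and 1503 on the control array of pair 1, against 773 on the knockout and 983 on the control array of pair 2, and differed by -0.06 and -0.33. The second probe set, 1423942_a_at, differed by -0.09 and 0.01, so the lower pair 2 signal in knockout was seen with 1 of the 2, and the mean over both was -0.16 in pair 2. 1423942_a_at had the higher signals in pair 1, 3511 on the knockout and 3737 on the control array, and the lower ones in pair 2, 272 and 271. 1423941_at stood for the gene by its higher mean of log2 values.

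The CaMKI genes encode single-subunit kinases that act in axon and dendrite growth. Camk1d had 1280.2 on the knockout and 858 on the control array of pair 1, and 271 on the knockout and 355 on the control array of pair 2, by 1452050_at. It differed by 0.56 and -0.35, the same order as Camk2a at a smaller size. A second probe set, 1426389_at, gave 0.95 and -0.28, and the third, 1438643_at, 0.05 and 0.11, which put the mean over the 3 at -0.17 in pair 2. Camk1 stood at 868 and 767 in pair 1 and at 266 and 340 in pair 2 (knockout, then control), with differences of 0.17 and -0.32. Its other probe set, 1417605_s_at, whose suffix marks probes shared by several transcripts, was lower in both pairs, at -0.36 and -0.22, so the pair 1 sign of Camk1 rests on the choice of probe set. Camk1g, with 1 probe set, had 1151 on the knockout and 1251 on the control array of pair 1, and 237 and 230.2 in pair 2, and differed by -0.12 and 0.04.

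Camk4, the nuclear kinase that phosphorylates CREB, ran in the reverse order to Camk2a. 1439843_at had 3455 on the knockout and 3915 on the control array of pair 1, against 983 on the knockout and 754 on the control array of pair 2, which gave -0.18 and 0.37. 1441974_at did the same, at -0.44 and 0.28, and so did 1426167_a_at, at -0.38 and 0.06. Of the remaining probe sets, 1421941_at was lower in both pairs, at -0.08 and -0.06. The dim 1452572_at was higher in both, at 0.41 and 0.09, and the mean over the 5 was 0.15 in pair 2.

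Camkk2, the upstream kinase of CaMKI, CaMKIV and AMP-activated kinase, was nearly even. 1424474_a_at had 1944 on the knockout and 2035 on the control array of pair 1, and 440 on the knockout and 430.2 on the control array of pair 2, and differed by -0.06 and 0.03. The other 3 probe sets ranged from -0.66 to 0.38 in pair 1 and from -0.16 to -0.05 in pair 2, where the lowest pair 1 value came from signals of 14.3 and 41.4. Camkv, a vesicle-associated relative that lacks kinase activity, had 2837 on the knockout and 2406 on the control array of pair 1, and 320.1 and 315 in pair 2. It differed by 0.23 and 0.02, and was the only one of the 10 genes that was higher in knockout in both pairs by its brightest probe set.

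**Figure D2:**
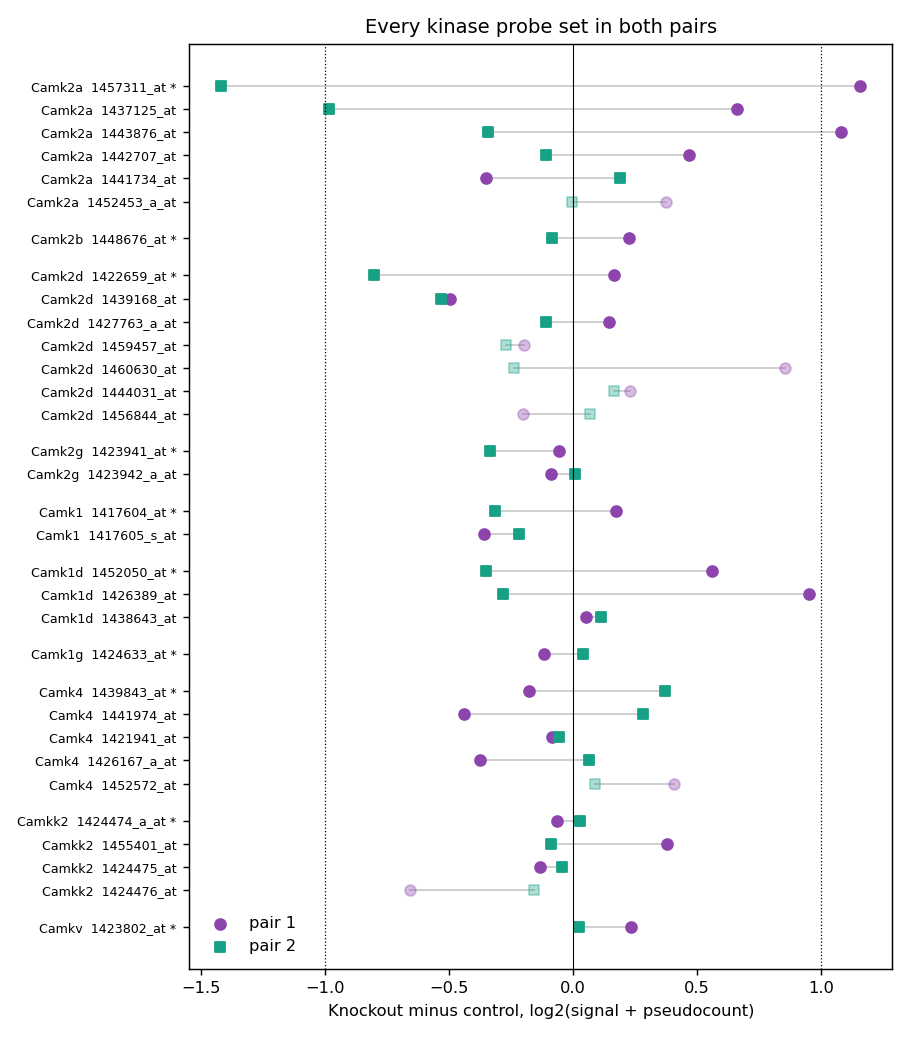
Difference between knockout and control (knockout minus control, log2 scale) of all 32 kinase probe sets in pair 1 (purple circles) and pair 2 (green squares), grouped by gene, with a star at the brightest probe set of a gene, pale symbols for the 7 below the brightness filter and dotted lines at 2-fold. The widest gap between the pairs is that of Camk2a 1457311_at, at 1.16 and -1.42, while Camk4 runs the other way round in 3 of 5 probe sets.

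Over the family, signs in the pairs were mixed. Of the 32 probe sets, 13 stood higher in knockout in pair 1 but lower in pair 2 (40.6%, against 20.9% of all probe sets), and 5 of these 13 belonged to Camk2a. A further 8 had the reverse order (25%, against 32.1% of all), 4 were higher in both (12.5%, against 24.2%) and 7 were lower in both (21.9%, against 22.7%). Probe sets of 1 gene measure the same RNA and are not independent. With 1 probe set per gene, 5 of 10 genes (Camk2a, Camk2b, Camk2d, Camk1 and Camk1d) stood higher in pair 1 but lower in pair 2, as 23.6% of 18193 genes did, and 3 (Camk1g, Camk4 and Camkk2) had the reverse order, as 29.4% of genes did. Camk2g was lower in both pairs and Camkv higher in both, though the other Camk2g probe set was lower in pair 1 and higher in pair 2. Many of these values are small. The median over the 32 probe sets was 0.10 in pair 1 and -0.09 in pair 2, and over all probe sets it was -0.05 and 0.02. The SD over the kinase probe sets was 0.46 in pair 1 and 0.36 in pair 2, against 0.58 and 0.20 over all probe sets. Across the 32 probe sets, which share the 4 arrays, the pair 1 and pair 2 differences had a Pearson's r of -0.50, and across the 26 without Camk2a it was -0.18, close to the -0.14 over all probe sets.

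**Figure D3:**
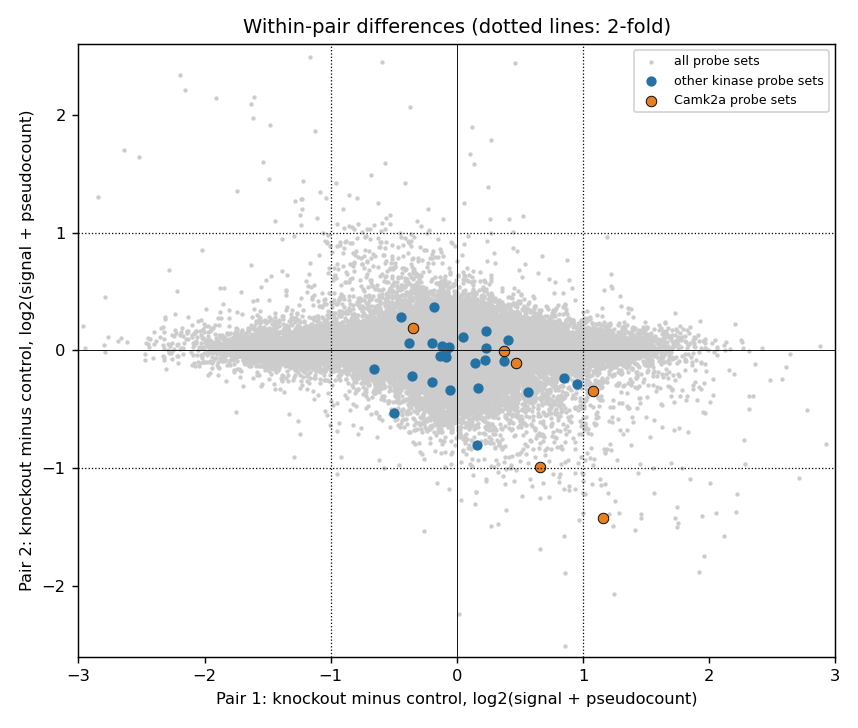
Each point is a probe set, with its difference in pair 1 on the horizontal axis and in pair 2 on the vertical axis (knockout minus control, log2 scale), all probe sets in grey, Camk2a in orange, the other kinase probe sets in blue and dotted lines at 2-fold. One Camk2a probe set lies past both lines, at 1.16 and -1.42, and 6 grey points lie outside the axes.

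Across the 4 arrays no kinase probe set passed the test between the labelled groups. limma was fitted on the 27022 probe sets whose mean was above the 40th percentile, among them 25 of the 32 kinase probe sets. It called 0 of the 25 at an adjusted p of 0.05, with 0% of all probe sets called, and 0 of the 25 had an unadjusted p under 0.05. The scale of the replicates enters the error of this fit. That error was taken wholly from the trend over probe sets of like brightness, not from the spread of a single probe set. Camk2a 1457311_at was at -0.13 ± 1.54 (SE, n = 2 per group, limma adjusted p = 1). With the replicate number as a block, which takes the scale out, limma again called 0 of the 25 and 0% of all probe sets, and Camk2a was at -0.13 ± 0.52 (adjusted p = 0.9999). The kinase probe set with the smallest unadjusted p in both fits was Camk2d 1439168_at, at -0.51 ± 0.22 with the block (SE, n = 2 per group, limma adjusted p = 0.9999). A missed threshold with so few arrays does not show that the groups were alike. Whether the 2 pairs themselves differ cannot be tested, since each pair holds 1 array per group.

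Of the other genes of calcium/calmodulin signalling, 68 of 75 listed were measured by a probe set with 1 symbol. In this list 28 stood higher in knockout in pair 1 but lower in pair 2 (41.2%, against 23.6% of all genes). The reverse order was seen in 16 (23.5%, against 29.4%). A further 12 were higher in both pairs (17.6%, against 24.2% of all probe sets) and 12 lower in both (17.6%, against 22.7%). Over 2-fold apart were 4 in pair 1 (5.88%, against 9.03% of all genes) and 2 in pair 2 (2.94%, against 0.467%). The inhibitor Camk2n2, a small protein that blocks active CaMKII, ran as Camk2a did. It had 3271 on the knockout and 1958 on the control array of pair 1, and 520 on the knockout and 1276 on the control array of pair 2, with differences of 0.73 and -1.24. Its paralogue Camk2n1 was at -0.20 and 0.00314, with a pair 2 sign that changed between settings (range -0.01 to 0.14). The other kinases and inhibitors thus gave no common picture: Pnck, also called CaMKI beta, was at -0.25 and -0.27, and Stk33, a kinase of the wider CaMK group, at 1.61 and -0.32 from dim signals of 79 on the knockout and 3.9 on the control array of pair 1. The other kinases and relatives had medians of 0.03 and -0.04 over 15 genes, and the inhibitors and phosphatases of 0.08 and -0.13 over 8. Camkk1 and the calmodulin genes were not analysed here.

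Calmodulin-binding proteins of the neuronal membrane and cytosol had members with wide differences. Pcp4, which tunes calcium exchange on calmodulin, had 1725 on the knockout and 937 on the control array of pair 1, and 265 on the knockout and 1070.1 on the control array of pair 2. It differed by 0.86 and -1.89. Neurogranin (Nrgn), which holds calmodulin near the postsynaptic membrane, was at 0.53 and -0.62 and Gap43, its growth cone counterpart, at 0.22 and -0.48. Of the 5 measured buffers 4 ran in this order (80%, against 23.6% of all genes). Marcks, at -0.13 and 0.32, ran in the reverse (20%, against 29.4%). The list for calcineurin, the phosphatase that opposes CaM kinases, held genes of its subunits and of its Rcan regulators. It had medians over 8 genes, 7 of them above the filter, of 0.24 and -0.08.

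Known substrates and effectors had small medians, 0.13 in pair 1 and -0.02 in pair 2 over 18 genes. Of the 18, 7 stood higher in knockout in pair 1 but lower in pair 2 (38.9%, against 23.6% of all genes). The reverse order was seen in 4 (22.2%, against 29.4%). A further 5 were higher in both pairs and 2 lower in both, as were 24.2% and 22.7% of all probe sets. The glutamate receptor subunit Gria1 was at 0.54 and -0.47, Grin2b at 0.34 and -0.16, and the vesicle protein synapsin I (Syn1) at 0.47 and -0.22, the same order as Camk2a. Creb1, the target of CaMKIV, was at 0.19 and 0.42. The 2 genes over 2-fold apart were Crtc2, a CREB coactivator, at -1.14 and -0.12, and Grin2a, at -1.24 and -0.07. Both were dim on the knockout array of pair 1, with signals of 36.1 for Crtc2 and 2 for Grin2a. On the control array of pair 1 these were 119 and 49.2. The Crtc2 difference in pair 1 ranged from -1.72 to -0.73 over the settings. The cyclases and phosphodiesterases that calmodulin regulates had medians of -0.45 and 0.03 over 6 genes, and among them Adcy1, at -0.52 and 0.80, ran opposite to Camk2a. Calcium channels and release proteins had medians of 0.14 and 0.06 over 8 genes, and the store sensor Stim1 was at 1.65 and 0.17, from signals of 109 and 12.4 in pair 1.

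**Figure D4:**
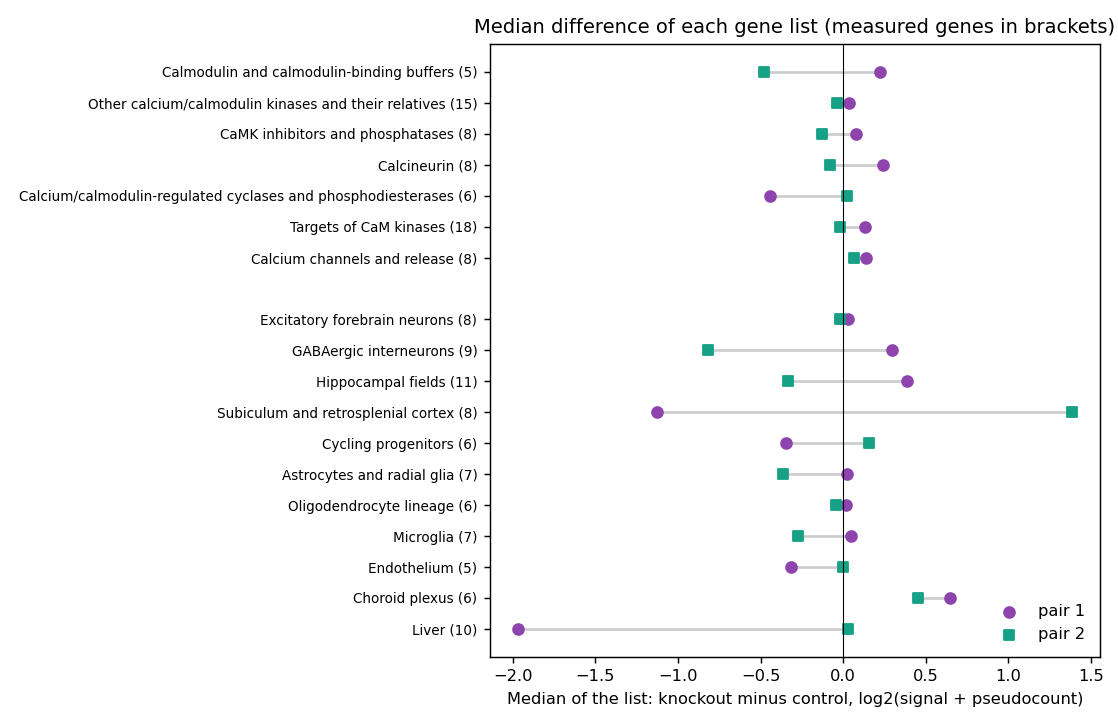
Median difference of each gene list (knockout minus control, log2 scale) in pair 1 (purple circles) and pair 2 (green squares), with pathway lists above and cell type lists below, and the number of measured genes in brackets. The calmodulin-binding buffers (0.22 and -0.48) and the GABAergic interneuron genes (0.29 and -0.82) have medians on the same sides as Camk2a, and the subiculum and retrosplenial cortex genes (-1.13 and 1.38) on the opposite sides.

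Markers of GABAergic interneurons ran in the order of Camk2a, and those of the subiculum and retrosplenial cortex in the reverse order. Of 9 genes of GABAergic interneurons, 8 stood higher in knockout in pair 1 but lower in pair 2, an order that 23.6% of all genes had, and their summed signal was 13828 on the knockout and 10531 on the control array of pair 1, against 2418 on the knockout and 4295 on the control array of pair 2. The hippocampal fields were mixed, with 5 of 11 genes in this order, 4 higher in both pairs, 1 reversed and 1 lower in both. Their sums were 10563 and 6308 in pair 1 and 3076 and 4504 in pair 2 (summed signal, knockout then control). In the subiculum and retrosplenial list the order was reversed for 7 of 8 genes, as for 29.4% of all genes, with sums of 13340 and 38066 in pair 1 and of 9693 and 2525 in pair 2. The excitatory neuron list, for the cells in which Camk2a is chiefly made, also held Snap25 and Rbfox3, which other neurons express too. Of its 8 genes, 3 ran in the order of Camk2a (37.5%, against 23.6% of all genes) and 3 in reverse (37.5%, against 29.4%). Another 1 was higher in both pairs and 1 lower in both. Single genes of the list ranged from -0.33 to 1.02 in pair 1 and from -0.82 to 0.89 in pair 2. The medians were 0.03 and -0.02, and the pair 2 median turned sign with quantile normalization and with arrays scaled to 1 trimmed mean. Cycling progenitor genes had medians of -0.34 and 0.16, choroid plexus genes of 0.65 and 0.46, and liver genes of -1.97 and 0.03. Genes of astrocytes and radial glia were at 0.03 and -0.36, of microglia at 0.05 and -0.28, of the oligodendrocyte lineage at 0.02 and -0.04, and of endothelium at -0.31 and -0.00211, the last turning sign with arrays scaled to 1 trimmed mean. No probe set of any kind had a signal of 0, the lowest being 0.3, so a marker signal above 0 does not show that a population was present. The part of these populations in the Camk2a values was not tested.

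The genes whose differences were most like those of Camk2a, by Euclidean distance over the 2 pairs among 12571 other genes above the filter, were Snhg11, Meis2, Cck, Tac2 and Npy. Snhg11, a neuronal non-coding RNA host gene, had 1755 on the knockout and 743 on the control array of pair 1, and 521 on the knockout and 1419 on the control array of pair 2, a distance of 0.05. The homeobox gene Meis2 lay at 1.29 and -1.38, a distance of 0.14. Of the 5, 3 encode neuropeptide precursors: cholecystokinin (Cck) at 0.97 and -1.44, Tac2, the precursor of neurokinin B, at 1.02 and -1.22, and neuropeptide Y (Npy) at 0.999 and -1.21. Npy also stands in the interneuron list above. How many of the 12571 genes encode neuropeptide precursors was not counted, so 3 of 5 has no share to be set against. With 2 pairs, likeness rests on 2 values per gene.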

How the data were processed

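Total RNA from hippocampi of postnatal day 2 pups was hybridised to 4 arrays, 2 per group. The deposited values are linear-scale signal intensities. The submitters' processing notes name MAS5 as the authors' tool, with no version, scaling target or detection call in the sources used here. Replicates of a group may be technical, as the labels name no animals, and p-values then measure only the spread between these arrays. The number of arrays limits the precision. The kinase genes and the gene lists were chosen with earlier results of these data known.

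Intensities were taken as log2(signal + 32.56), the pseudocount being the 20th percentile of all values. The authors' scaling was kept. Of 45037 probe sets, 34945 had 1 gene symbol, 932 several and 9160 none. The probe set with the highest mean of these log2 values over the 4 arrays stood for its gene (18193 genes). It is the one called the brightest probe set of a gene above. The test was limma 3.58.1 (R 4.3.3) with lmFit and eBayes with trend, on the 27022 brightest probe sets by mean (above the 40th percentile), and Benjamini-Hochberg adjustment at 0.05. It was first run on simulated data with known changes, with a check on the mean estimates only. The noise there was set and not taken from these arrays, so the power on these arrays is not known from it. Descriptions used Python 3.11.15. The labels do not say that a replicate number marks a shared litter or day; the deviations from the group mean of arrays with the same number had a correlation of 0.837 over the probe sets. Named were all 10 kinase genes, kinase probe sets over 2-fold apart or of the opposite sign to, and over 0.5 from, the brightest probe set of the gene, pathway-list genes over 2-fold apart, and Pnck, Camk2n1 and Camk2n2; cell type lists were given by medians and counts; other list genes and kinase probe sets given by value were picked with values known. The alternatives changed pseudocount, scaling, filter, probe set choice, eBayes options, the replicate block and the arrays used.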

Additional observations from a re-analysis of the deposited data

How the results depend on the processing

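limma called 0 kinase probe sets and 0 probe sets of the whole array under every fit run, including the replicate block and each array left out in turn. With smallest adjusted p-values of 0.628 to 1 over the fits, this says nothing about how stable any difference is. A fit without 1 array assumes that the lone array of its group varies like the other group. Counts at an unadjusted p are therefore not given for these fits. At an unadjusted p under 0.05 the fit as designed had 5 of 27022 probe sets and the replicate block 330, among which were 0 kinase probe sets in both fits. The limma estimate for Camk2a, -0.13 with all arrays, ranged from -0.78 to 0.52 when 1 array was left out, being 0.51 without knockout replicate 2 and 0.52 without control replicate 2. The number of kinase probe sets over 2-fold apart, 2 in pair 1 and 1 in pair 2, was 7 and 2 with a floor of 1 and no pseudocount, 0 and 3 with quantile normalization, and 2 and 2 with arrays scaled to 1 trimmed mean or centred on the 75th percentile. The shares of all probe sets past 2-fold in pair 1 and pair 2 were 10.1% and 0.331% as designed, 27.2% and 0.853% with the floor, 3.95% and 0.839% with quantile normalization, 3.75% and 0.429% with trimmed-mean scaling, and 10.1% and 0.344% centred on the 75th percentile. Of the 20 within-pair values of the 10 genes, 18 kept their sign under all 6 alternatives of scaling, pseudocount and probe set. The exceptions were Camk1 in pair 1 (-0.09) and Camkk2 in pair 2 (-0.07), each with the mean over the probe sets of the gene. A changed pseudocount or a floor acts alike on both arrays of a pair and cannot turn a sign. Scaling to 1 trimmed mean or centring shifts a pair as a whole and by little, so only small values could turn. Signs kept under these settings therefore say little about stability. The counts of kinase probe sets by sign in the pairs stayed within 1.5 times under each alternative, and the same limit holds for them. Dim signals have no detection call here, so no lower bound on expression is given.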
